A study of Mus musculus with 68 samples.

Results

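The 39 canonical imprinted genes described here were measured in cumulus cells and preimplantation embryos of the mouse. The members were taken by gene name alone from a list of well-known imprinted loci, and each was found on 1 row, at the same position of mm10, in the gene table of every library. They made up 39 of the 24421 gene names in the tables.

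Genomic imprinting is the expression of a gene mainly from the copy inherited from one parent. Differentially methylated regions are set in the germ line, on the maternal copy in the oocyte or on the paternal copy in sperm, and are kept through the cleavage divisions by factors such as ZFP57, which binds a methylated hexamer, its partner TRIM28, the maintenance methyltransferase DNMT1 and the oocyte protein DPPA3. The affected genes lie in clusters and act in fetal growth, placental development and metabolism, and several of them are expressed from both copies, or not at all, before implantation. In an embryo made by somatic cell nuclear transfer (SCNT) the imprints are not set anew but come with the donor nucleus. The tables hold 1 value per gene and no allele information, so a level could not be divided between the maternal and the paternal copy.

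The 68 libraries were polyadenylated RNA amplified from few cells by Smart-seq2, with 10 blastomeres in each reaction for the embryos. Cumulus cells (CC, n = 3), the somatic cells around the oocyte, and MII oocytes came from B6D2F1 females. By the age in weeks that the study's methods give, these were young adults. Cumulus nuclei were injected into enucleated B6D2F1 oocytes, which were activated with SrCl2 in the presence of cytochalasin B, and untreated embryos were collected at 6 and 14 hours post activation (6 hpa and 14 hpa), at the early 2-cell (E2C), late 2-cell (L2C), 4-cell (4C) and 8-cell (8C) stages, as morulae and from the blastocyst as its inner cell mass (ICM), which forms the fetus, or its trophectoderm (TE), which forms the placenta, with n = 5 at 4C and n = 6 elsewhere. Fertilized C57BL/6j zygotes were injected with a morpholino, an antisense oligonucleotide that blocks an RNA without cutting it, against Max (Max MO) or Mcrs1 (Mcrs1 MO) or with a random control (control MO), and their ICM and TE were collected with n = 2 per group. The control MO libraries carry the label untreated. The paper gives a higher dose for the control than for either targeting morpholino, and the doses of the targeting morpholinos differ too. Dose and target therefore cannot be told apart, either between the targeting morpholinos or in any comparison of a targeting morpholino with control MO. Fertilized and SCNT embryos differed in strain, injection and experiment, and their levels are given side by side only. The labels do not say that the libraries of a group came from separate collections of embryos, and every p-value measures the spread between these libraries.

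Levels are in TPM, an abundance per transcript length scaled within each library, and differences are on the log2(TPM + 1) scale with their standard error, which understates the change of low genes. A gene was called where limma's moderated test, adjusted by Benjamini-Hochberg over all genes tested, gave an adjusted p under 0.05 and the difference was at least 2-fold on that scale. In each of the 3 fits (CC and 6 hpa, all SCNT groups, all morpholino groups) 21 of the 39 members passed the filter of a mean of at least 1 TPM over the libraries of the fit, and the other 18 could not be called.

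The ratio of deposited coverage to FPKM gave 1 to 5.17 gigabases of aligned sequence per library, 6177 to 11771 genes reached 1 TPM, and the reference genes held 30.4 to 94.4% of the TPM assembled in a library. Cumulus markers summed to 3166 to 4576 TPM in CC and to at most 67.7 TPM in any SCNT library, and oocyte markers summed to 6757 to 16084 TPM at 6 hpa and to at most 70.1 TPM from 8C on. Within several stages replicates 1 to 3 and replicates 4 to 6 stood apart. The labels do not say what the numbers share, and ranges of members in SCNT groups are given by these 2 sets where they did not overlap. SCNT ICM replicates 1 to 3 had 6177 to 6771 genes at 1 TPM against 9011 to 10032 in replicates 4 to 6. ICM samples also held TE markers, with a sum of 2242 to 9102 TPM in SCNT ICM against 6369 to 17712 TPM in SCNT TE. In the morpholino experiment control MO ICM replicate 1 had a TE marker sum of 18693 TPM, near the 21566 and 24228 TPM of control MO TE, whereas replicate 2 had 678 TPM. Its ICM marker sum was 2269 TPM against 2956 TPM in replicate 2, and counts of calls against control MO ICM are given with and without it.

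Most of the summed signal of the 39 genes came from a few members, whose identity changed over development. The sum over the 39 members was 1234 to 1282 TPM in CC, 370.0 to 388 TPM at 6 hpa, 677 to 896 TPM in morulae and 734 to 965 TPM in SCNT ICM. In CC, Gnas gave 29.4%, Cd81 27.8% and Commd1 18.8% of the mean sum, and at 6 hpa Phlda2 gave 33.8% and Commd1 20.0%. Impact gave 61.0% of the sum in L2C replicates 1 to 3 and 22.9% in L2C replicates 4 to 6. At 4C it gave 62.8% in replicates 1 to 3, whereas in replicates 4 and 5 Snrpn gave 43.9% and Impact 29.5%. From 8C on Snrpn gave the largest share, 58.8% at 8C, 56.7% in morulae, 62.9% in SCNT ICM and 48.6% in SCNT TE. A member was counted as present in a group where more libraries reached 1 TPM than did not. It was so for 15 members in CC, 15 at 6 hpa, 17 at 14 hpa, 18 at E2C, 20 at L2C, 13 at 4C, 12 at 8C, 15 in morulae, 10 in SCNT ICM and 11 in SCNT TE. The share of members present was above that of all 24421 genes at 6 hpa (38.5% against 35.4%), 14 hpa (43.6% against 36.7%), E2C (46.2% against 38.6%), L2C (51.3% against 42.8%) and in morulae (38.5% against 37.3%). It was below it in CC (38.5% against 41.1%), at 4C (33.3% against 35.9%), at 8C (30.8% against 33.8%), in SCNT ICM (25.6% against 29.8%) and in SCNT TE (28.2% against 34.8%). These shares were not tested.

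**Figure D1:**
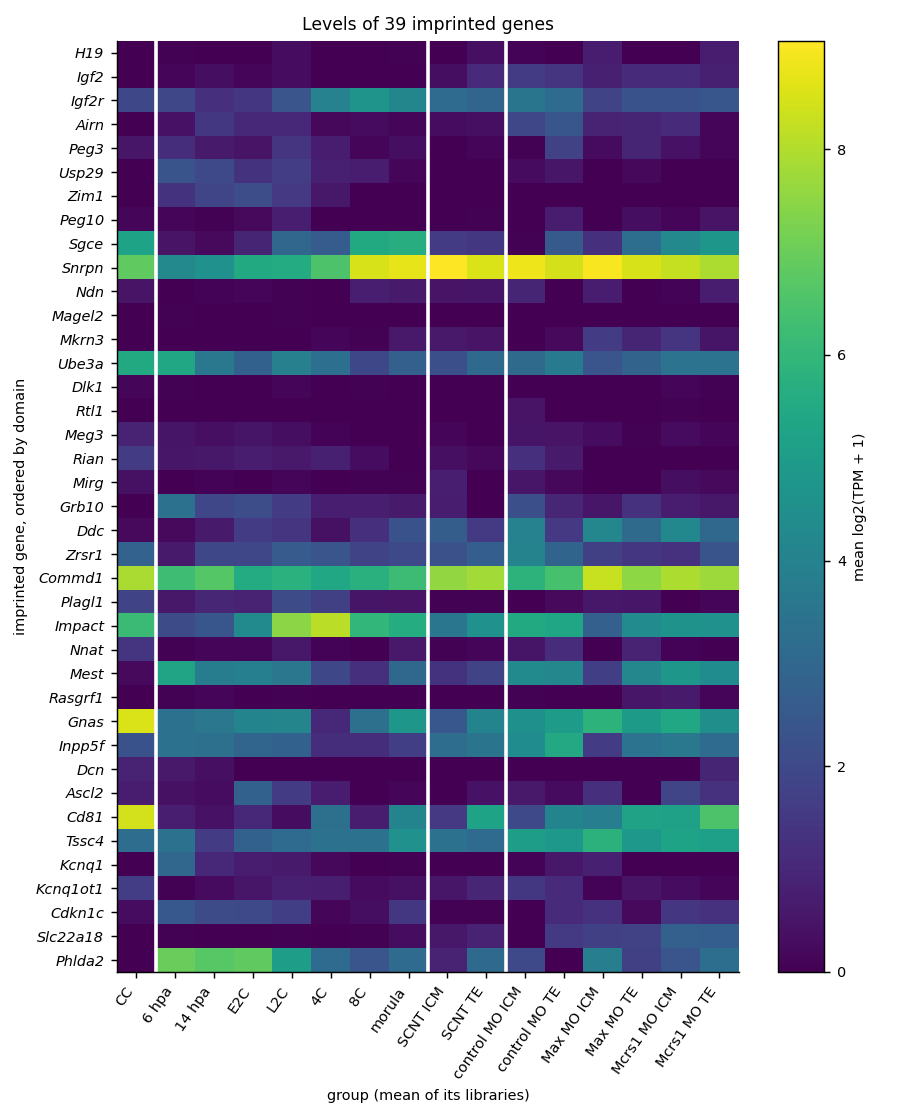
Heat map of the mean log2(TPM + 1) of each of the 39 imprinted genes (rows, ordered by domain) in each of the 16 groups (columns), with white lines between cumulus cells, cleavage stages, SCNT blastocyst parts and morpholino groups. Snrpn, Commd1, Impact, Gnas, Cd81 and Phlda2 carry the high values, each in other groups, while 16 members reach 1 TPM in most SCNT embryo libraries at no stage up to the morula.

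Of the 39 members, 15 were present at 6 hpa, 8 of them also in CC (Igf2r, Snrpn, Ube3a, Commd1, Impact, Gnas, Inpp5f and Tssc4) and 7 not in CC (Usp29, Zim1, Grb10, Mest, Kcnq1, Cdkn1c and Phlda2). Presence at 6 hpa need not last. The 8 were present in 15 or 16 of the 16 groups. Of the 7, Kcnq1 was present in 2 groups and Usp29 and Zim1 in 4. Grb10 and Cdkn1c were present in 5, and Mest and Phlda2 in 12. A further 8 first reached 1 TPM in most libraries later, Airn and Zrsr1 at 14 hpa, Ddc and Ascl2 at E2C, Peg3, Sgce and Plagl1 at L2C and Cd81 at 4C. No member had its onset at 8C or in the morula. The remaining 16 reached it at no stage from 6 hpa to morula, and 3 of these (Rian, Nnat and Kcnq1ot1) did so in CC.

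The members that stayed low included both genes of the best-known imprinted pair. H19, a noncoding RNA of the maternal copy (chr7:142575530-142578146), was listed at 0 in 51 of the 68 libraries and at most at 3.26 TPM, in SCNT TE replicate 6. Igf2, the fetal growth factor of the paternal copy (chr7:142650768-142661035), was at most at 1.68 TPM in SCNT ICM and at 0.0173 to 2.97 TPM (median 1.17) in SCNT TE, and at 2.14 and 1.85 TPM in control MO ICM. Neither reached 1 TPM in most libraries of a stage before the blastocyst.

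The members of the Dlk1-Dio3 cluster of chromosome 12 were present in no embryo group, and 1 of them, Rian, was present in CC. Dlk1, a Notch-like growth regulator, and the retrotransposon-derived Rtl1 reached 1 TPM in no library, like Magel2 of the Snrpn cluster. Of the noncoding RNAs of the maternal copy, Rian reached 1 TPM in 3 of 3 CC and 9 of 65 embryo libraries, Mirg in 3 embryo libraries and Meg3 in 1 CC library. Meg3 was highest in CC, at 0.80, 1.14 and 0.642 TPM, and Rian was at 3.4, 1.79 and 1.28 TPM in CC. Single embryo libraries were higher, with Rian at 10.1 TPM in 4C replicate 2 and Mirg at 5.48 TPM in SCNT ICM replicate 4.

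The other members of this low set had 1 or a few libraries above the rest. Ndn, a neuronal growth regulator, was at most at 6.95 TPM, in 8C replicate 1. Mkrn3, a ring finger protein, was at most at 12 TPM, in SCNT ICM replicate 1. Nnat, a membrane proteolipid of neurons, was at most at 4.65 TPM, in morula replicate 3. Slc22a18, a transporter of the Kcnq1 cluster, was under 1 TPM in most libraries of every SCNT group and at least at 1 TPM in both libraries of 5 of the 6 morpholino groups, with a maximum of 19.5 TPM in Mcrs1 MO ICM replicate 2. Peg10, a retrotransposon-derived gene required for the placenta, was at most at 3.38 TPM, in L2C replicate 2, Rasgrf1, a Ras exchange factor, at most at 1.53 TPM, and Dcn, the matrix proteoglycan decorin, at most at 2.36 TPM.

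Several members lie back to back or overlap another gene. Sgce and Peg10 are transcribed away from each other from starts 101 bases apart on chromosome 6, and Peg3 and Usp29 in the same way from starts 163 bases apart on chromosome 7. Zrsr1 (chr11:22972005-22976496) lies inside an intron of Commd1 (chr11:22899728-22982284) on the opposite strand and Kcnq1ot1 inside Kcnq1 (chr7:143107254-143427042). Airn overlaps Igf2r (chr17:12682406-12769706), Nnat overlaps Blcap, Mest (chr6:30733506-30748466) overlaps Copg2, and Snrpn (chr7:59982502-60140219) overlaps Snurf on the same strand. The protocol does not mark strand, so reads of such pairs could not be told apart where they overlap, and the levels of both partners are uncertain to that extent.

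Stretches upstream of 3 of these starts are shown. The Peg3-Usp29 interval is the whole sequence between a pair of genes that were both detected at 6 hpa and near 0 in SCNT ICM. The stretch before Zrsr1 lies inside Commd1, and these 2 genes were called in opposite directions in 1 of the morpholino comparisons. The stretch before the downstream Mest start holds 14 CpG, and Mest was at or near 0 in CC and among the higher members at 6 hpa. Sequences are from RefSeq (GRCm38.p6), plus strand, 5′ to 3′, in lower case, with capitals for the hexamer TGCCGC recognised by ZFP57 when methylated, searched on both strands, which reads GCGGCA where the match is on the minus strand.
Peg3-Usp29 interval, chr7:6730420-6730582: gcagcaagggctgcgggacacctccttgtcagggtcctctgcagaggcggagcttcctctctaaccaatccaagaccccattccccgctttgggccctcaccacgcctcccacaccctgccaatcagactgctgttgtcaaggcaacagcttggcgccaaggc
Upstream of Zrsr1, chr11:22971755-22972004: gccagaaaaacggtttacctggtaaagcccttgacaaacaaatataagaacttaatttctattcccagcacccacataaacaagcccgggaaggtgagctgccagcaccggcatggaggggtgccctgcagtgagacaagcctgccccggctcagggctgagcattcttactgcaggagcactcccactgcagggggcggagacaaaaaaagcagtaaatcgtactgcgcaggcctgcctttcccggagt
Upstream of the downstream Mest start, chr6:30737800-30738049: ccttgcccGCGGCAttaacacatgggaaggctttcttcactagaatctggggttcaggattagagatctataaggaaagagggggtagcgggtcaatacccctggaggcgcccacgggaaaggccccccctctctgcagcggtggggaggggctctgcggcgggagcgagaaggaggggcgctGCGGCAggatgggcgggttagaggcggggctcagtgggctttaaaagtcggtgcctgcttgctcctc
The Mest stretch held 2 matches in 250 bases, and the Peg3-Usp29 interval and the Zrsr1 stretch held none of these letters in 163 and 250 bases. RefSeq gave 46 promoters for 31 of the 39 members, and 5 of the 46, at Meg3, Mest, Plagl1 and Zim1, held the hexamer in the 250 bases before the start (10.9%), against 8.68% of 32851 promoters of all genes. Of these 5, 2 lie before neighbouring Mest starts, at chr6:30737800-30738049 and chr6:30737803-30738052. They hold the same matches, so 1 stretch was counted in both, and the shares were not tested. A match is a description of the letters and not a binding site.

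Between CC and 6 hpa, the comparison of the donor cell type with the reconstructed embryo before its genome is active, 8 members were called higher and 9 lower. Of the 11169 genes tested, 31.7% were called higher, 44.2% lower and 75.9% in either direction, so most genes were called here. The median log2 difference was -0.04 over the 21 members tested and -0.53 over all genes. The 6 hpa libraries hold the RNA of the oocyte and whatever came with 1 cumulus cell, and a level cannot be divided between these sources.

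The members with the highest levels in CC were low at 6 hpa. Cd81, a tetraspanin of the cell surface in the Kcnq1 cluster (chr7:143052750-143067930), was at 365, 418 and 271 TPM in CC and at 0.248 to 2.04 TPM (median 0.45) at 6 hpa (log2 difference -7.66 ± 0.31, adjusted p = 4.76e-10). Gnas, the G protein subunit that activates adenylyl cyclase (chr2:174284320-174346742), was at 404, 337 and 375 TPM in CC and at 7.86 to 13.9 TPM (median 9.24) at 6 hpa (log2 difference -5.12 ± 0.21, adjusted p = 5.10e-10). The groups did not overlap for either gene.

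Sgce, the epsilon subunit of the sarcoglycan complex (chr6:4674350-4747204), was at 32.2, 42.1 and 36.5 TPM in CC and at 0 to 0.0707 TPM in replicates 1 to 3 and 0.498 to 1.22 TPM in replicates 4 to 6 at 6 hpa (log2 difference -4.76 ± 0.30, adjusted p = 1.50e-08). Impact, an inhibitor of the kinase GCN2, was at 66.2, 66 and 84.7 TPM in CC and at 4.1 to 6.25 TPM in replicates 1 to 3 and 1.19 to 3.31 TPM in replicates 4 to 6 at 6 hpa (log2 difference -4.07 ± 0.35, adjusted p = 2.60e-07). Each CC library lay above each 6 hpa library for both genes.

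Commd1 and Snrpn fell as well but were still well above 1 TPM at 6 hpa. Commd1, a regulator of copper handling and of NF-kB, was at 231, 205 and 279 TPM in CC and at 60.3 to 103 TPM (median 70.9) at 6 hpa (log2 difference -1.65 ± 0.20, adjusted p = 7.06e-06). Snrpn, the splicing protein SmN, was at 118, 124 and 102 TPM in CC and at 9.44 to 28.5 TPM (median 22.5) at 6 hpa (log2 difference -2.57 ± 0.35, adjusted p = 2.17e-05). Zrsr1, a retrogene of a splicing factor, was at 5.75, 5.3 and 7.58 TPM in CC and at 0.268 to 1.41 TPM (median 0.409) at 6 hpa (log2 difference -2.18 ± 0.24, adjusted p = 3.16e-06). The groups were separate for all 3 genes.

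Rian and Plagl1 were the other members called lower, both from low levels. Rian was at 0.0481 to 0.293 TPM in replicates 1 to 3 and 0.357 to 1.61 TPM in replicates 4 to 6 at 6 hpa (log2 difference -1.07 ± 0.31, adjusted p = 0.0060), and its call was lost without 6 hpa replicate 1 or replicate 2. Plagl1, a zinc finger transcription factor, was at 1.79, 4.2 and 2.18 TPM in CC and at 0.126 to 2.34 TPM (median 0.322) at 6 hpa (log2 difference -1.25 ± 0.34, adjusted p = 0.0043). At 6 hpa replicate 6 lay within the CC range for Rian and replicate 1 for Plagl1.

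The reverse set was absent or nearly so from CC and present at 6 hpa. Phlda2, which restrains placental growth (chr7:143501548-143502524), was listed at 0 in all 3 CC libraries and at 104 to 155 TPM (median 126) at 6 hpa (adjusted p = 1.68e-11). Kcnq1, a potassium channel, was also listed at 0 in CC and at 4.77 to 10.3 TPM (median 6.9) at 6 hpa (adjusted p = 1.58e-07). Zim1, a zinc finger gene, was listed at 0 in CC and at 0.617 to 2.09 TPM (median 1.86) at 6 hpa (adjusted p = 2.03e-04). No CC library overlapped a 6 hpa library for these 3 genes.

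Mest, a hydrolase-like protein of the mesoderm, was at 0.572, 0.0088 and 0 TPM in CC and at 27.4 to 64.3 TPM (median 35.8) at 6 hpa (log2 difference 5.07 ± 0.30, adjusted p = 1.02e-08). Grb10, an adaptor that inhibits insulin signalling (chr11:11930499-12037420), was at 0.0044, 0.0507 and 0 TPM in CC and at 9.66 to 11 TPM in replicates 1 to 3 and 7.98 to 8.91 TPM in replicates 4 to 6 at 6 hpa (log2 difference 3.34 ± 0.20, adjusted p = 1.13e-08). Usp29, a deubiquitinase, was at 0, 0.0174 and 0 TPM in CC and at 4.3 to 5.23 TPM in replicates 1 to 3 and 3.1 to 3.9 TPM in replicates 4 to 6 at 6 hpa (log2 difference 2.35 ± 0.20, adjusted p = 3.08e-07). These groups were again separate, as were those of Cdkn1c, the cyclin-dependent kinase inhibitor p57 (chr7:143458339-143461050). Cdkn1c was at 0.917, 0 and 0 TPM in CC and at 2.27 to 7.08 TPM (median 5.02) at 6 hpa (log2 difference 2.17 ± 0.33, adjusted p = 5.64e-05). Inpp5f, a phosphoinositide phosphatase, was at 2.27, 6.53 and 3.82 TPM in CC and at 5.86 to 15.6 TPM (median 9.49) at 6 hpa (log2 difference 1.10 ± 0.33, adjusted p = 0.0077). Its groups overlapped, and its call was lost without CC replicate 1 (0.80) or 6 hpa replicate 2 (0.96).

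The 4 tested members without a call were Ube3a, Igf2r, Tssc4 and Peg3. Ube3a, the ubiquitin ligase of the Angelman locus, was at 33.4, 49.9 and 51.2 TPM in CC and at 30 to 54.2 TPM (median 47.1) at 6 hpa (log2 difference -0.05 ± 0.25, adjusted p = 0.86). Igf2r, the receptor that clears IGF2, was at 2.52, 2.63 and 3.54 TPM in CC and at 1.83 to 4.31 TPM (median 2.79) at 6 hpa (log2 difference -0.04 ± 0.26, adjusted p = 0.89). Tssc4, a factor of the splicing machinery, was at 9.12, 9.39 and 6.77 TPM in CC and at 2.28 to 9.8 TPM in replicates 1 to 3 and 12.7 to 17.9 TPM in replicates 4 to 6 at 6 hpa (log2 difference 0.18 ± 0.46, adjusted p = 0.73). The 6 hpa values of these 3 genes spanned the CC range. Peg3, a zinc finger gene expressed from the paternal copy, was at 0.516, 0.428 and 0.449 TPM in CC and at 1.22 to 3.96 TPM in replicates 1 to 3 and 0.592 to 0.95 TPM in replicates 4 to 6 at 6 hpa (log2 difference 0.65 ± 0.31, adjusted p = 0.071). Of the pair that shares the printed interval Usp29 was thus called and Peg3 was not, and the difference between the 2 genes was not tested.

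**Figure D2:**
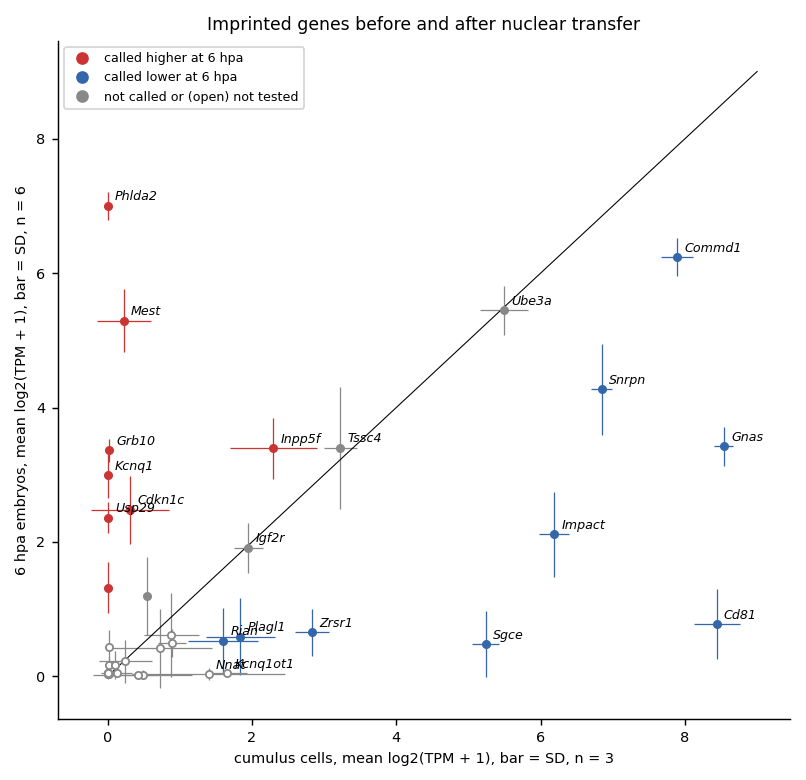
Mean log2(TPM + 1) of the 39 imprinted genes in cumulus cells (horizontal axis, n = 3) and in 6 hpa SCNT embryos (vertical axis, n = 6), with bars of 1 SD, the diagonal of equal levels and colours for genes called higher or lower and open points for genes not tested. Cd81, Gnas, Impact and Sgce lie far below the diagonal, and Phlda2 and Mest stand near the left edge, high at 6 hpa and at or near 0 in cumulus cells.

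Of a list of 20 factors that keep or remove imprints 18 were tested, 14 were called higher at 6 hpa than in CC and 3 lower, against 31.7% and 44.2% of all genes, with a median log2 difference of 2.27. Ctcfl, Tet2 and Ehmt2 reached 1 TPM in 0 of the 6 libraries at 6 hpa and Tet1 in 1. Zfp57 was at 381 to 649 TPM (median 598) at 6 hpa and at a mean of 1.78 ± 1.54 TPM (SD, n = 3) in CC. Dppa3 was at 17396 to 23496 TPM (median 20961) at 6 hpa and at a mean of 2.93 ± 0.895 TPM (SD, n = 3) in CC. Zfp445, another imprint-binding zinc finger protein, was among the 3 called lower, with means of 11.3 ± 0.997 TPM in CC (SD, n = 3) and 3.47 ± 1.94 TPM at 6 hpa (SD, n = 6). Of a list of 37 further imprinted genes 21 were tested, 9 were called higher and 12 lower, with a median of -1.93 against -0.53 over all genes.

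From 6 to 14 hpa 3 members were called, all lower, against 11.1% of 11867 genes in either direction, 6.14% higher and 4.94% lower. Ube3a was at 8.22 to 17.5 TPM (median 10.6) at 14 hpa (log2 difference -1.81 ± 0.47, adjusted p = 0.0048). Grb10 was at 1.09 to 2.88 TPM in replicates 1 to 3 and 3.7 to 4.27 TPM in replicates 4 to 6 at 14 hpa (log2 difference -1.42 ± 0.35, adjusted p = 0.0029), and Kcnq1 at 0.384 to 1.11 TPM in replicates 1 to 3 and 1.51 to 1.87 TPM in replicates 4 to 6 (log2 difference -1.95 ± 0.24, adjusted p = 2.00e-08). The 6 and 14 hpa libraries did not overlap for any of the 3 genes. The Ube3a call was lost within replicates 1 to 3 alone (-1.83, adjusted p = 0.18) and the Grb10 call within replicates 4 to 6 alone (-0.90). The differences and p-values given here are from the fit without pairs. In an alternative fit same-numbered libraries were taken as pairs, although the labels do not state a pairing. With the number as a block 5 members were called, the same 3 with Zrsr1 and Tssc4 added. The share of all genes called with the block is not given. Phlda2 was at 62.2 to 337 TPM (median 89.9) at 14 hpa, where replicate 2 stood alone, and was not called (log2 difference -0.31 ± 0.75, adjusted p = 0.94).

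At E2C 2 members were called higher and 1 lower than at 14 hpa, against 2.78% and 3.05% of all genes and 5.83% in either direction. Ascl2, a helix-loop-helix factor needed for the placenta (chr7:142966822-142969264), was at 0 to 0.846 TPM (median 0.156) at 14 hpa and at 19 to 26.1 TPM in replicates 1 to 3 and 0.358 to 1.58 TPM in replicates 4 to 6 at E2C (log2 difference 2.54 ± 0.50, adjusted p = 4.11e-04). Impact was at 1.66 to 5.11 TPM in replicates 1 to 3 and 6.47 to 6.71 TPM in replicates 4 to 6 at 14 hpa and at 48.6 to 51.5 TPM in replicates 1 to 3 and 3.84 to 8.76 TPM in replicates 4 to 6 at E2C (log2 difference 1.89 ± 0.60, adjusted p = 0.044). Both genes were high in the same 3 of the 6 E2C libraries. The Impact call was lost without any of E2C replicates 1 to 3 (1.61, 1.62 and 1.61) or any of 14 hpa replicates 1 to 4 (1.69 to 1.99). Within replicates 1 to 3 alone the Impact difference was 3.78 (adjusted p = 2.12e-06), and within replicates 4 to 6 alone it was under 0.01 in size and not called.

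Commd1 and Gnas showed the opposite order of the same E2C libraries. Commd1 was at 33.9 to 94.4 TPM in replicates 1 to 3 and 155 to 172 TPM in replicates 4 to 6 at 14 hpa and at 20.4 to 37.6 TPM in replicates 1 to 3 and 74.2 to 84.1 TPM in replicates 4 to 6 at E2C (log2 difference -1.10 ± 0.35, adjusted p = 0.043). Its call was lost in 7 of the 12 fits that left out 1 library, with differences of -1.12 to -0.87, namely without 14 hpa replicates 3, 4, 5 or 6 or E2C replicates 1, 2 or 3. Gnas was at 2.43 to 13.4 TPM in replicates 1 to 3 and 36.6 to 70.6 TPM in replicates 4 to 6 at E2C and was not called (log2 difference 0.49 ± 0.66, adjusted p = 0.82). Phlda2 was at 61 to 142 TPM (median 124) at E2C.

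At L2C, when the main wave of genome activation takes place in the mouse, Impact had the largest difference among the members tested. It was at 251 to 401 TPM in replicates 1 to 3 and 88.2 to 115 TPM in replicates 4 to 6 (log2 difference 3.19 ± 0.60, adjusted p = 2.53e-05), and no L2C library overlapped an E2C library. The difference was 2.70 within replicates 1 to 3 and 3.69 within replicates 4 to 6. In all 4 members were called higher, against 23.7% of all genes, and 1 lower, against 11.2%, with 34.9% of all genes called in either direction.

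The other members called at L2C had groups that overlapped. Sgce was at 1.03 to 3.61 TPM in replicates 1 to 3 and 0 to 0.294 TPM in replicates 4 to 6 at E2C and at 1.15 to 35.2 TPM (median 5.92) at L2C (log2 difference 2.07 ± 0.65, adjusted p = 0.0090). Ube3a was at 3.21 to 7.0 TPM in replicates 1 to 3 and 7.38 to 8.08 TPM in replicates 4 to 6 at E2C and at 5.54 to 27.5 TPM (median 16.2) at L2C (log2 difference 1.16 ± 0.47, adjusted p = 0.044), and its call was lost in 10 of 12 fits without 1 library, with differences of 0.98 to 1.22. Plagl1 was at 0.0697 to 2.81 TPM (median 0.711) at E2C and at 1.63 to 6.32 TPM (median 3.4) at L2C (log2 difference 1.25 ± 0.44, adjusted p = 0.020), and its call was lost without E2C replicate 6, L2C replicate 2 or L2C replicate 3 (1.10, 1.10 and 1.14). With both sets of replicates in the fit these 3 genes were called higher, and within replicates 1 to 3 alone none of the 3 was.

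Ascl2 was called lower at L2C, where it was at 0 to 5.9 TPM (median 2.87) (log2 difference -1.20 ± 0.50, adjusted p = 0.049). The call was lost without any of E2C replicates 1 to 3 or L2C replicates 1, 2 or 6, with differences of -1.19 to -0.82. Peg3 had its highest SCNT mean at this stage, at 1.45 to 4.22 TPM in replicates 1 to 3 and 0.526 to 1.14 TPM in replicates 4 to 6, and Usp29 was at 0.311 to 10.6 TPM (median 2.17). L2C replicate 2 held the highest value of Peg3, Usp29 and Peg10 among all 68 libraries.

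At 4C 5 members were called lower, against 26.6% of all genes, and 2 higher, against 11.8%, with 38.4% called in either direction. Inpp5f was at 3.64 to 10.9 TPM (median 6.41) at L2C and at 2.15, 0.345, 1.76, 2.15 and 0.714 TPM at 4C (log2 difference -1.62 ± 0.47, adjusted p = 0.0042). Cdkn1c was at 0.323 to 5.36 TPM (median 2.31) at L2C and at 0.262, 0, 0.26, 0 and 0 TPM at 4C (log2 difference -1.55 ± 0.39, adjusted p = 0.0011). The groups of both genes were separate. Gnas was at 0.405 to 27 TPM in replicates 1 to 3 and 27.8 to 48.9 TPM in replicates 4 to 6 at L2C and at 0.0602, 0.347, 0.895, 6.93 and 0.806 TPM at 4C (log2 difference -3.05 ± 0.69, adjusted p = 2.90e-04), with 4C replicates 3, 4 and 5 inside the L2C range.

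Mest and Phlda2 were called lower from uneven 4C libraries. Mest was at 5.06 to 17.3 TPM (median 12.2) at L2C and at 0.17, 7.94, 12.1, 1.74 and 1.34 TPM at 4C (log2 difference -1.65 ± 0.66, adjusted p = 0.039). Phlda2 was at 12.1 to 58.7 TPM (median 45.1) at L2C and at 127, 28.8, 0.258, 4.5 and 1.19 TPM at 4C (log2 difference -1.92 ± 0.79, adjusted p = 0.045). For Phlda2 4C replicate 1 was above every L2C library. Each call was lost in 7 of the 11 fits without 1 library, with differences of -1.67 to -1.21 for Mest and of -1.84 to -1.21 for Phlda2, and within replicates 1 to 3 alone. With quantile normalization Mest, Inpp5f, Cdkn1c and Phlda2 lost their calls and 3 members were called.

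Igf2r and Cd81 were the members called higher at 4C. Igf2r was at 2.8 to 14.7 TPM (median 3.4) at L2C, at 10.8, 4.63, 10.4, 39.7 and 33.3 TPM at 4C (log2 difference 1.60 ± 0.36, adjusted p = 2.98e-04) and at 18.4 to 30.1 TPM (median 26.5) at 8C, its highest group mean. Within replicates 1 to 3 the 4C difference of Igf2r was 0.44 and not called (adjusted p = 0.57), and within replicates 4 to 6 it was 3.17. Airn, the noncoding RNA that silences Igf2r on the paternal copy later in development, overlaps it. Airn was at 0.0312 to 0.613 TPM (median 0.414) at 6 hpa, was highest among the SCNT groups at 14 hpa, at 0.0503 to 2.3 TPM in replicates 1 to 3 and 2.76 to 3.12 TPM in replicates 4 to 6, and was at 0, 0.592, 0, 0 and 0.204 TPM at 4C. It was under the filter of the SCNT fit, and from 6 to 14 hpa it was called with no filter and in a fit of these 2 groups alone.

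Cd81 was present at 4C, low at 8C and present again in the morula. It was at 0 to 0.641 TPM (median 0.193) at L2C and at 22.6, 56.6, 11, 5.28 and 0 TPM at 4C (log2 difference 3.04 ± 0.67, adjusted p = 1.96e-04). It was at 0.0809 to 2.28 TPM (median 0.527) at 8C (log2 difference -2.65 ± 0.67, adjusted p = 0.0030) and at 5.25 to 46.4 TPM (median 19.5) in morulae (log2 difference 3.42 ± 0.64, adjusted p = 1.32e-04). Neither of the first 2 steps was called within replicates 4 to 6 (1.16 and -0.76), whereas the step to the morula was called in each of the 9 alternatives and the 12 fits without 1 library. Tssc4, which starts 1437 bases downstream of Cd81, was at 4.65, 14.3, 6.11, 11.4 and 17.1 TPM at 4C, 0.722 to 9.95 TPM in replicates 1 to 3 and 18.1 to 20.1 TPM in replicates 4 to 6 at 8C and 12.5 to 42.2 TPM (median 22.3) in morulae and was not called at these steps.

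**Figure D3:**
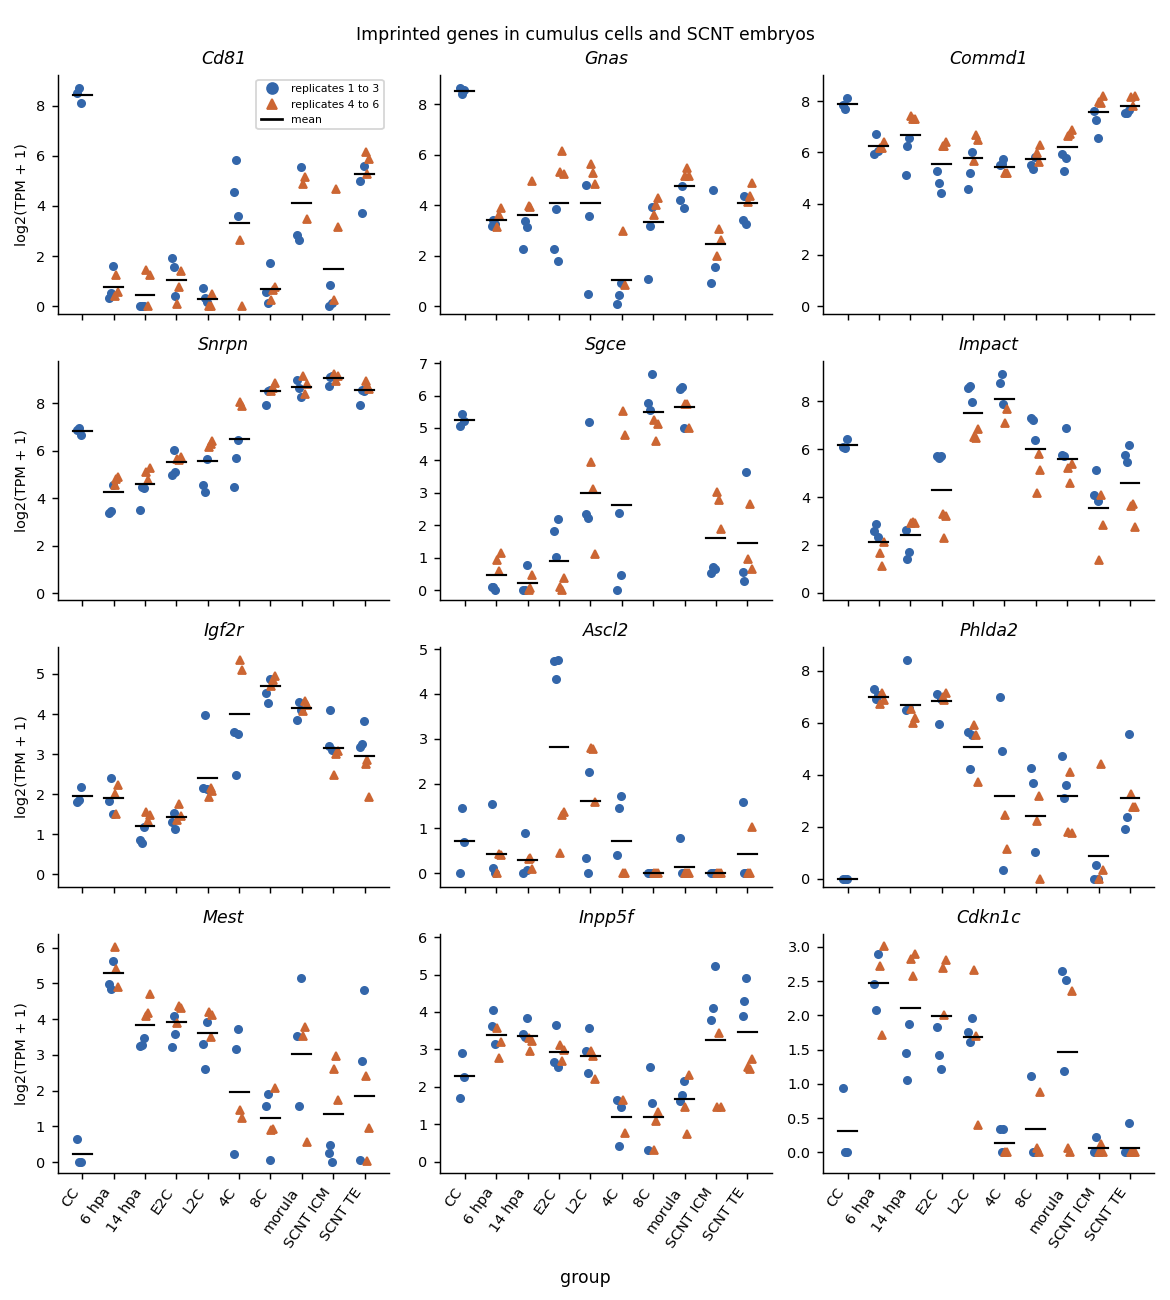
log2(TPM + 1) of 12 imprinted genes in each library of cumulus cells and SCNT embryos, by group, with circles for replicates 1 to 3, triangles for replicates 4 to 6 and a bar for the mean. Cd81 and Gnas are lower at 6 hpa than in cumulus cells, Impact is highest at L2C and 4C with replicates 1 to 3 above the others, Snrpn and Sgce are high at 8C and in morulae, and Sgce is low again in the blastocyst.

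At 8C 3 members were called higher, against 11.5% of all genes, and 3 lower, against 8.23%, with 19.8% called in either direction. Snrpn, the most abundant member from this stage on, was at 21, 51.4, 86.9, 265 and 238 TPM at 4C and at 240.4 to 467 TPM (median 372) at 8C (log2 difference 1.99 ± 0.40, adjusted p = 2.41e-04). Sgce was at 0, 4.25, 0.402, 44.9 and 26.6 TPM at 4C and at 45.5 to 101 TPM in replicates 1 to 3 and 23.1 to 36.9 TPM in replicates 4 to 6 at 8C (log2 difference 2.85 ± 0.68, adjusted p = 0.0017). For both genes 4C replicates 4 and 5 were above 4C replicates 1 to 3. Within replicates 4 to 6 the difference was 0.70 for Snrpn and -0.17 for Sgce, neither of them called.

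Gnas, the other member called higher, was at 1.14 to 18.3 TPM (median 12.8) at 8C (log2 difference 2.30 ± 0.69, adjusted p = 0.013), a call lost without 4C replicate 1 (2.06) and within replicates 1 to 3 alone (adjusted p = 0.096). Impact was at 431, 561, 235, 137 and 201 TPM at 4C, its highest group mean, and at 83.3 to 158 TPM in replicates 1 to 3 and 16.9 to 53.9 TPM in replicates 4 to 6 at 8C (log2 difference -2.10 ± 0.63, adjusted p = 0.013). Its call was lost without 4C replicate 2 (-1.85) or 8C replicate 4 (-1.74). Ube3a was at 10.8, 7.51, 9.02, 9.27 and 8.34 TPM at 4C and at 0.549 to 7.03 TPM (median 3.15) at 8C (log2 difference -1.35 ± 0.49, adjusted p = 0.042), with separate groups, and lost its call in 10 of 11 fits without 1 library, with differences of -1.41 to -1.08, and within replicates 1 to 3 alone (adjusted p = 0.21).

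In the morula Cd81 and Cdkn1c were the members called, both higher, against 8.74% of all genes called higher and 3.48% lower. Cdkn1c was at 0 to 1.16 TPM (median 0.024) at 8C and at 5.27, 1.27, 4.72, 0.0437, 0 and 4.14 TPM in the 6 morula libraries (log2 difference 1.12 ± 0.37, adjusted p = 0.038). It was at or near 0 in 2 of the 6, and its call was lost in 7 of 12 fits without 1 library, with differences of 0.88 to 1.06, and in 6 of 9 other alternatives.

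Between the morula and the blastocyst Sgce had the largest difference of the members, lower in both lineages. It was at 30.8 to 76.4 TPM (median 52.4) in morulae, 0.455 to 0.635 TPM in replicates 1 to 3 and 2.73 to 7.21 TPM in replicates 4 to 6 in SCNT ICM (log2 difference -4.05 ± 0.65, adjusted p = 3.15e-06) and 0.235 to 11.6 TPM (median 0.771) in SCNT TE (log2 difference -4.19 ± 0.65, adjusted p = 1.67e-06). Neither lineage overlapped the morulae, and both calls held in each alternative and without each library. Commd1 was at 38 to 59.8 TPM in replicates 1 to 3 and 99.1 to 118 TPM in replicates 4 to 6 in morulae, 93.3 to 196 TPM in replicates 1 to 3 and 246 to 290.4 TPM in replicates 4 to 6 in SCNT ICM (log2 difference 1.38 ± 0.35, adjusted p = 0.0021) and 183 to 201 TPM in replicates 1 to 3 and 222 to 291 TPM in replicates 4 to 6 in SCNT TE (log2 difference 1.61 ± 0.35, adjusted p = 3.71e-04). It was called higher within each set of replicates too.

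Inpp5f, like Commd1, was called higher in both lineages. It was at 0.654 to 4.01 TPM (median 2.23) in morulae, 12.8 to 36.2 TPM in replicates 1 to 3 and 1.73 to 9.77 TPM in replicates 4 to 6 in SCNT ICM (log2 difference 1.57 ± 0.45, adjusted p = 0.0066) and 13.8 to 29 TPM in replicates 1 to 3 and 4.56 to 5.71 TPM in replicates 4 to 6 in SCNT TE (log2 difference 1.80 ± 0.45, adjusted p = 0.0019). Within replicates 4 to 6 neither was called, with a TE difference of 1.09. In SCNT ICM 7 members were called lower than in morulae and 2 higher, against 15% and 8.96% of all genes (24% in either direction). In SCNT TE 3 were called lower and 2 higher, against 10.8% and 11% (21.8% in either direction). Both comparisons share the morula libraries. Within replicates 1 to 3, where the ICM libraries had fewer genes at 1 TPM, 8 of the 9 ICM calls held and that of Gnas was lost. Within replicates 4 to 6 those of Sgce, Commd1, Impact and Gnas held and 5 were lost, with differences of -0.19 for Mest, 0.62 for Inpp5f, -1.83 for Cd81, -0.77 for Cdkn1c and -0.97 for Phlda2. The part of library complexity in these calls was not tested.

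Cdkn1c was called lower in both lineages, at 0 to 0.163 TPM (median 0) in SCNT ICM (log2 difference -1.40 ± 0.37, adjusted p = 0.0036) and 0 to 0.34 TPM (median 0) in SCNT TE (log2 difference -1.39 ± 0.37, adjusted p = 0.0040), where the call was lost within replicates 4 to 6 alone (-0.81). Igf2r was at 13.5 to 19.1 TPM (median 16.9) in morulae and 8.05 to 13.2 TPM in replicates 1 to 3 and 2.8 to 6.21 TPM in replicates 4 to 6 in SCNT TE (log2 difference -1.18 ± 0.35, adjusted p = 0.0086), a call lost without SCNT TE replicate 6 (-0.97) and within replicates 1 to 3 alone (-0.67). In SCNT ICM Igf2r was at 7.61 to 16.2 TPM in replicates 1 to 3 and 4.6 to 7.42 TPM in replicates 4 to 6 (log2 difference -0.98 ± 0.35, adjusted p = 0.029), under the 2-fold limit.

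The remaining 5 members called lower in SCNT ICM were not called in SCNT TE. Gnas was at 13.9 to 26.1 TPM in replicates 1 to 3 and 34.9 to 43.7 TPM in replicates 4 to 6 in morulae and 0.877 to 23.6 TPM (median 4.08) in SCNT ICM (log2 difference -2.33 ± 0.66, adjusted p = 0.0062). Impact was at 51.4 to 116 TPM in replicates 1 to 3 and 23.4 to 41.1 TPM in replicates 4 to 6 in morulae and 1.6 to 34.3 TPM (median 14.6) in SCNT ICM (log2 difference -2.03 ± 0.60, adjusted p = 0.0091). Cd81 was at 0 to 24.5 TPM (median 0.482) in SCNT ICM (log2 difference -2.60 ± 0.64, adjusted p = 0.0016). For these genes, and for Mest and Phlda2, some ICM libraries lay within the morula range. Mest was at 0.469 to 34.5 TPM (median 10.5) in morulae and 0 to 0.386 TPM in replicates 1 to 3 and 2.31 to 6.81 TPM in replicates 4 to 6 in SCNT ICM (log2 difference -1.68 ± 0.63, adjusted p = 0.040), and its call was lost in 7 of 12 fits without 1 library, with differences of -1.58 to -1.25. Phlda2 was at 2.37 to 25 TPM (median 9.37) in morulae and 0 to 20.3 TPM (median 0.132) in SCNT ICM (log2 difference -2.30 ± 0.75, adjusted p = 0.018), a call lost without morula replicate 1 (-2.0). Whether a member differed between the lineages was tested by comparing ICM with TE directly.

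Between SCNT ICM and SCNT TE 1 member was called, Cd81, lower in ICM, against 5.34% of all genes in either direction, 3.87% lower and 1.47% higher. Cd81 was at 0, 0.788, 0.0822, 0.175, 24.5 and 7.84 TPM in ICM replicates 1 to 6 and at 31.2, 12, 46.7, 70.6, 37.8 and 57.9 TPM in TE replicates 1 to 6 (log2 difference -3.77 ± 0.64, adjusted p = 9.54e-05). The first 4 ICM libraries were under 1 TPM, no TE library was under 12 TPM, and ICM replicate 5 lay inside the TE range. That library also had the highest TE marker sum of SCNT ICM, 9102 TPM, and the part of TE cells in its level was not tested. The difference was -4.45 within replicates 1 to 3 and -3.09 within replicates 4 to 6, both called. In a fit of these 2 groups alone the call was lost (adjusted p = 0.061).

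The other 20 members tested were not called between the SCNT lineages. Gnas was at 0.877 to 23.6 TPM (median 4.08) in ICM and 8.51 to 28.8 TPM (median 18.1) in TE (log2 difference -1.62 ± 0.66, adjusted p = 0.15). Phlda2 was at 2.8 to 46.4 TPM (median 5.81) in TE (log2 difference -2.23 ± 0.75, adjusted p = 0.069), with replicate 3 far above the rest. Each of these pairs of groups overlapped. Snrpn was at 420.1, 556, 572, 603, 485 and 574 TPM in ICM replicates 1 to 6 and at 244, 379, 363, 492, 428 and 392 TPM in TE replicates 1 to 6 (log2 difference 0.50 ± 0.38, adjusted p = 0.56). It was higher in ICM in 6 of 6 same-numbered pairs, although the groups overlapped, and with the replicate number as a block the difference was 0.50 ± 0.30 (adjusted p = 0.36). With the block Gnas (adjusted p = 0.065) and Phlda2 (adjusted p = 0.053), each lower in ICM in 5 of 6 pairs, also missed the threshold. Tssc4 was at 28.1, 0.386, 0.179, 18.1, 39.7 and 40.5 TPM in ICM replicates 1 to 6 and at 4.26, 3.73, 0, 32.6, 16.2 and 34.7 TPM in TE replicates 1 to 6 (log2 difference 0.26 ± 0.77, adjusted p = 0.98), so that both lineages held libraries near 0 and libraries over 30 TPM. Ddc, which makes dopamine, was at 12.7, 0.268, 36.7, 1.91, 5.08 and 4.92 TPM in ICM replicates 1 to 6 and at 0 to 5.51 TPM (median 2.62) in TE (log2 difference 1.15 ± 0.56, adjusted p = 0.26). Of the placental members of the Kcnq1 cluster, Ascl2 was listed at 0 in 4 of 6 TE libraries and Slc22a18 was under 2 TPM in 5 of 6.

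**Figure D4:**
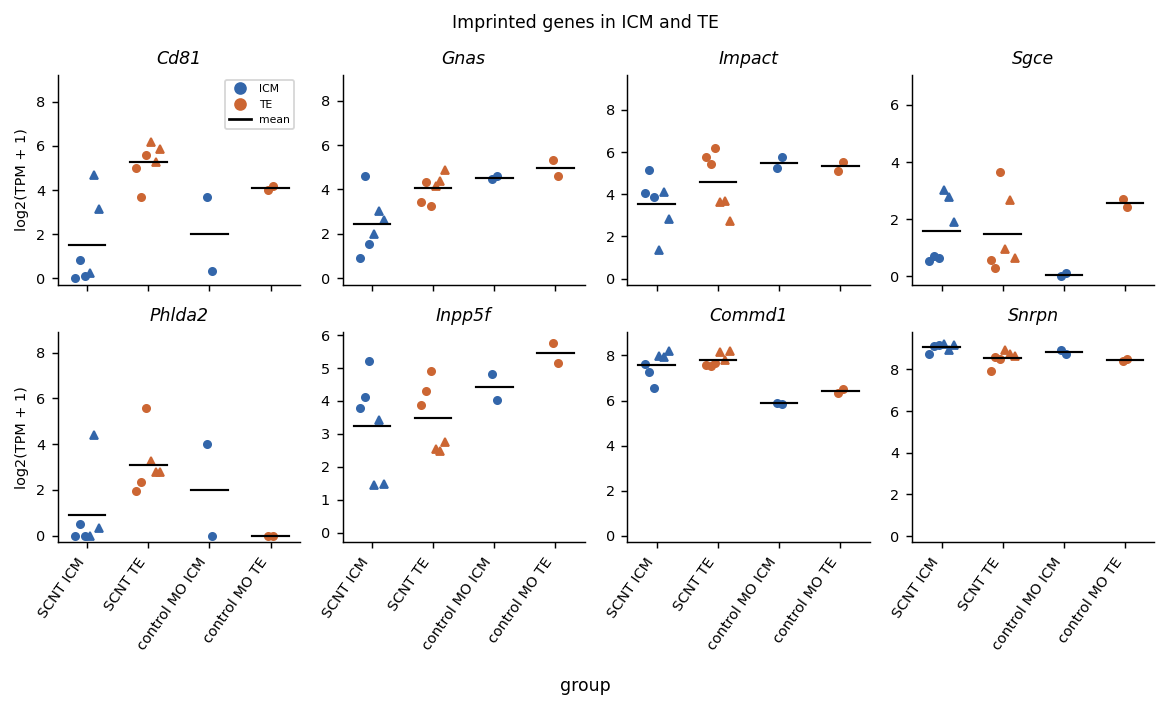
log2(TPM + 1) of 8 imprinted genes in each ICM library (blue) and TE library (orange) of SCNT blastocysts (n = 6) and of fertilized blastocysts injected with control morpholino (n = 2), with circles for replicates 1 to 3, triangles for 4 to 6 and a bar for the mean. Cd81 is under 1 TPM in 4 SCNT ICM libraries and at 12 TPM or more in every SCNT TE library, and Commd1 lies lower in the control morpholino libraries than in the SCNT libraries.

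Fertilized blastocysts with control MO had other levels of some members, with no test because strain and experiment differ too. Snrpn was at 490.5 and 426 TPM in control MO ICM, inside the SCNT ICM range. Commd1 was at 58.5 and 56.6 TPM in control MO ICM and 79.5 and 90.2 TPM in control MO TE, under every SCNT ICM and SCNT TE library. Mest was at 20.3 and 18.5 TPM in control MO ICM and 17.2 and 17.3 TPM in control MO TE, above every SCNT ICM library and above 5 of 6 SCNT TE libraries. Airn was at 13.4 and 0 TPM in control MO ICM and 5.68 and 3.24 TPM in control MO TE, against at most 1 library over 1 TPM in each SCNT lineage.

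Between control MO ICM and control MO TE 1 member was called, Sgce, lower in ICM, against 2.92% of all genes in either direction, 1.2% lower and 1.72% higher. Sgce was at 0 and 0.0901 TPM in ICM and 5.54 and 4.33 TPM in TE (log2 difference -2.50 ± 0.58, adjusted p = 0.048). The call was lost without control MO ICM replicate 2 (adjusted p = 0.067) and without control MO TE replicate 1 or 2 (adjusted p = 0.22 and 0.12). Without control MO ICM replicate 1, whose TE markers were high, 4 members were called, Sgce with Airn, Ddc and Cd81 added, against 12.1% of all genes lower and 8.35% higher. Cd81 was at 11.8 and 0.269 TPM in control MO ICM and 15.2 and 16.9 TPM in control MO TE (log2 difference -2.08 ± 0.93, adjusted p = 0.22).

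The targeted transcripts were compared first. Mcrs1 was at 86.8 and 73.4 TPM in Mcrs1 MO ICM and 253 and 310.1 TPM in control MO ICM (log2 difference -1.80 ± 0.21, adjusted p = 0.0033), and at 41.1 and 45.5 TPM in Mcrs1 MO TE and 219 and 294 TPM in control MO TE (log2 difference -2.53 ± 0.21, adjusted p = 8.68e-04). Max was at 6.82 and 0.443 TPM in Max MO ICM and 38 and 8.42 TPM in control MO ICM (log2 difference -2.51 ± 0.80, adjusted p = 0.040), and this call was lost without control MO ICM replicate 1 (-1.49) or Max MO ICM replicate 2 (-1.29) and with a trend on transcript length removed (adjusted p = 0.059). In TE Max was at 16.3 and 8.68 TPM in Max MO and 34.5 and 28.5 TPM in control MO (log2 difference -1.32 ± 0.80, adjusted p = 0.39). A morpholino need not change the level of the RNA that it binds.

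The Max MO and Mcrs1 MO comparisons share the control MO libraries, so calls that recur in both are not independent. In both comparisons the dose differed along with the target, and the part of dose was not tested. Transcript length moved with both comparisons. In Max MO ICM the median log2 difference was 1.05 over genes with transcripts up to 1 kb and -1.0 over genes above 4 kb, and in Mcrs1 MO ICM it was 0.64 and -0.52. Calls lost once this trend was removed, an alternative chosen after seeing the data, are named beside the gene.

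Commd1 was called higher in all 4 comparisons of a targeting morpholino with its control. In ICM it was at 58.5 and 56.6 TPM in control MO, 369 and 267 TPM in Max MO (log2 difference 2.43 ± 0.23, adjusted p = 3.79e-04) and 222 and 268 TPM in Mcrs1 MO (log2 difference 2.06 ± 0.23, adjusted p = 0.0030). In TE it was at 79.5 and 90.2 TPM in control MO, 207 and 164 TPM in Max MO (log2 difference 1.11 ± 0.23, adjusted p = 0.038) and 236 and 187 TPM in Mcrs1 MO (log2 difference 1.30 ± 0.23, adjusted p = 0.015). All 8 targeting libraries were above all 4 control libraries, and 7 of the 8 lay within the SCNT ICM and TE range of Commd1. The share of TPM held by reference genes separated the same libraries. It was 85.5 to 87.0% in control MO ICM, 89.6 to 90.3% in control MO TE and 93.6 to 94.4% in the targeting libraries. The part of this library measure in the Commd1 levels was not tested.

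The ICM differences of Commd1 were 2.45 and 2.09 without control MO ICM replicate 1, and both stayed called. The Max MO TE call was lost in all 4 fits without 1 library (adjusted p = 0.089 to 0.22) and the Mcrs1 MO TE call without control MO TE replicate 1 or either Mcrs1 MO TE library (adjusted p = 0.10 to 0.12). GENCODE lists protein-coding Commd1 transcripts of 469 to 4508 bases, so the length class of Commd1, and its values with the length trend removed, are uncertain.

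Zrsr1, inside Commd1, was at 21 and 11.7 TPM in control MO ICM, 7.39 and 0.31 TPM in Max MO ICM (log2 difference -2.34 ± 0.81, adjusted p = 0.054) and 0.961 and 2.09 TPM in Mcrs1 MO ICM (log2 difference -2.77 ± 0.81, adjusted p = 0.049). It was called lower with Mcrs1 MO and missed the threshold with Max MO. In TE it was at 10.5 and 3.97 TPM in control MO, 1.82 and 1.58 TPM in Max MO and 4.38 and 3.94 TPM in Mcrs1 MO, with no call. The Mcrs1 MO call was lost without control MO ICM replicate 1 (adjusted p = 0.090), without either Mcrs1 MO ICM library (adjusted p = 0.23 and 0.12) and in 5 of 7 other alternatives, the length trend among them.

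In Max MO ICM 2 members were called higher and 3 lower, against 8.65% and 15.1% of the 11219 genes tested. Impact was at 36.6 and 53.1 TPM in control MO ICM and 5.51 and 6.28 TPM in Max MO ICM (log2 difference -2.71 ± 0.40, adjusted p = 0.0015). Mest was at 20.3 and 18.5 TPM in control MO ICM and 1.38 and 3.33 TPM in Max MO ICM (log2 difference -2.66 ± 0.43, adjusted p = 0.0021). Both calls held in each alternative and without each library. Inpp5f was at 27 and 15.2 TPM in control MO ICM and 0.657 and 4.47 TPM in Max MO ICM (log2 difference -2.82 ± 0.61, adjusted p = 0.0078). Its call was lost without Max MO ICM replicate 1 (-1.96) and with the length trend removed (-1.92, adjusted p = 0.068).

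Gnas was the member called higher with Commd1, at 21.5 and 23 TPM in control MO ICM and 60 and 52.7 TPM in Max MO ICM (log2 difference 1.30 ± 0.32, adjusted p = 0.013), a call lost without Max MO ICM replicate 1 (1.21). Without control MO ICM replicate 1 8 members were called, the same 5 with Igf2r, Cd81 and Phlda2, against 12.7% of all genes higher and 17.5% lower. In Max MO TE Commd1 alone was called, against 2.5% of all genes in either direction, 1.04% higher and 1.45% lower.

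The members called lower in Max MO ICM were not called in Max MO TE. Impact was at 33.9 and 44.7 TPM in control MO TE and 17.7 and 22.3 TPM in Max MO TE (log2 difference -0.94 ± 0.40, adjusted p = 0.22). Mest was at 17.2 and 17.3 TPM in control MO TE and 13.6 and 22.1 TPM in Max MO TE (log2 difference 0.01 ± 0.43, adjusted p = 1.0). Inpp5f was at 52.8 and 34.5 TPM in control MO TE and 12.4 and 7.7 TPM in Max MO TE (log2 difference -2.02 ± 0.61, adjusted p = 0.097). The groups were separate for Impact and Inpp5f and overlapped for Mest. Separation between groups of 2 libraries is only a description, here and in the other morpholino comparisons. Its share over all genes is not given.

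In Mcrs1 MO ICM 3 members were called higher and 1 lower, against 4.88% and 5.21% of all genes, and in Mcrs1 MO TE 2 higher and 0 lower, against 1.77% and 3.31%. Sgce was at 0 and 0.0901 TPM in control MO ICM and 20.9 and 16.2 TPM in Mcrs1 MO ICM (log2 difference 4.21 ± 0.58, adjusted p = 0.0044). In TE Sgce was at 5.54 and 4.33 TPM in control MO and 26.3 and 27.3 TPM in Mcrs1 MO (log2 difference 2.24 ± 0.58, adjusted p = 0.047). The groups were separate in both lineages. The ICM call held without each library in turn (4.15 without control MO ICM replicate 1). The TE call was lost in all 4 such fits (adjusted p = 0.17 to 0.24) and with the length trend removed. In a fit of the ICM libraries alone 0 of the 4 ICM members were called. Without control MO ICM replicate 1 4 members were called, with Igf2r in place of Zrsr1, against 12% of all genes higher and 10.4% lower.

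The other genes beside Sgce and the other morpholino gave these values. Peg10, 101 bases from Sgce, was at 0.0174 and 0.23 TPM in Mcrs1 MO ICM and 0.374 and 0.442 TPM in Mcrs1 MO TE, so that Sgce alone of the pair was above 1 TPM there. With Max MO, Sgce was at 0.394 and 3.16 TPM in ICM (log2 difference 1.21 ± 0.58, adjusted p = 0.15) and 6.62 and 11.1 TPM in TE (log2 difference 0.70 ± 0.58, adjusted p = 0.54).

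Cd81 was at 11.8 and 0.269 TPM in control MO ICM and 76.5 and 15.8 TPM in Mcrs1 MO ICM (log2 difference 3.16 ± 0.93, adjusted p = 0.049). The difference was 1.5 without control MO ICM replicate 2 (adjusted p = 0.15) and 4.83 without replicate 1, and the call was also lost without Mcrs1 MO ICM replicate 1 (2.06) or replicate 2 (4.26) and with the length trend removed. In TE Cd81 was at 15.2 and 16.9 TPM in control MO and 91.7 and 89.1 TPM in Mcrs1 MO (log2 difference 2.42 ± 0.93, adjusted p = 0.14), separate and not called. TE marker sums were 12893 and 9248 TPM in Mcrs1 MO ICM replicates 1 and 2, and their part in the ICM levels of Cd81 and Sgce was not tested. Of 11 TE markers tested in Mcrs1 MO ICM 0 were called higher and Tfap2c lower with all libraries (list median 0.98). In Max MO ICM 0 were called higher and 2 lower, Tfap2c and Ppp2r3a (list median -0.91). Without control MO ICM replicate 1, whose TE markers were high, the medians were 2.73 in Mcrs1 MO ICM and 0.96 in Max MO ICM. The lack of higher calls with all libraries therefore does not show that TE markers stayed level.

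Markers of other cell types of the blastocyst moved with these ICM comparisons. Of 6 primitive endoderm markers tested Gata4 and Sox17 were called higher in both Max MO ICM (list median 1.26) and Mcrs1 MO ICM (list median 2.32). Sox17 had a mean of 0.067 TPM in control MO ICM, 105 TPM in Max MO ICM and 30.4 TPM in Mcrs1 MO ICM, and Gata4 had means of 0.040, 14.3 and 10.9 TPM. Both stayed called without control MO ICM replicate 1, and Dab2, which is also on the TE marker list, was called higher there too. Of 9 ICM markers tested Fgf4 and Klf2 were called lower in Mcrs1 MO ICM (list median -1.35) and none in Max MO ICM by limma (2 at an unadjusted p under 0.05). In Mcrs1 MO ICM Klf2 and Gdf3 were the ICM markers called lower without control MO ICM replicate 1. The part of the cell types in the levels of the members was not tested.

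**Figure D5:**
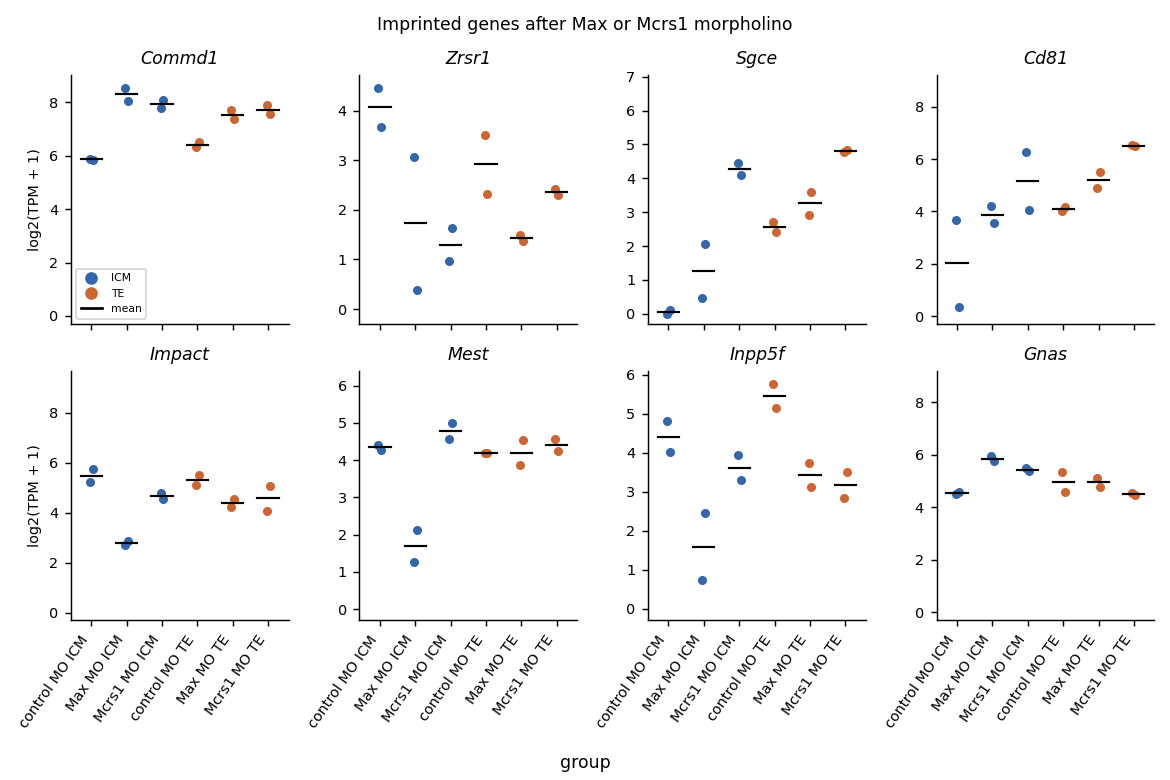
log2(TPM + 1) of 8 imprinted genes in each library of the 6 morpholino groups, ICM in blue and TE in orange, n = 2 per group, with a bar for the mean. Commd1 is higher in all 8 Max MO and Mcrs1 MO libraries than in the 4 control libraries, Sgce is highest in the Mcrs1 MO groups, and Impact, Mest and Inpp5f are low in Max MO ICM.

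The response to each morpholino was also compared between ICM and TE. By limma no member was called for Max MO or Mcrs1 MO, and no gene at all was (0% of 11219 genes), while 5 and 3 members had an unadjusted p under 0.05. The Max MO response of Mest differed by -2.68 ± 0.61 between ICM and TE (adjusted p = 0.17) and that of Gnas by 1.33 ± 0.45 (adjusted p = 0.27). Without control MO ICM replicate 1 Mest was called for Max MO and Airn for Mcrs1 MO, with 507 and 840 of 11146 genes called in all. A call in ICM without one in TE was therefore not shown, with all libraries in the fit, to differ between the lineages.

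Of the 20 imprint factors 17 were tested in the morpholino groups. In Max MO ICM 8 were called lower (Setdb1, Uhrf1, Dnmt1, Ctcf, Hells, Smchd1, Tet1 and Tet2) and Dppa3 was called higher, against 15.1% and 8.65% of all genes, with a list median of -1.39 against -0.21 over all genes. With the length trend removed none of the 17 was called by limma in Max MO ICM or Mcrs1 MO ICM, and the Dnmt1 differences were -1.14 (adjusted p = 0.28) and -1.78 (adjusted p = 0.12). In Max MO ICM 3 factors were called higher and 9 lower without control MO ICM replicate 1, against 12.7% and 17.5% of all genes. Dnmt1 was at a mean of 32.7 ± 20.2 TPM in control MO ICM and 6.42 ± 3.34 TPM in Max MO ICM (SD, n = 2, log2 difference -2.12 ± 0.62, adjusted p = 0.028), a difference of -2.77 without control MO ICM replicate 1. In Mcrs1 MO ICM Dnmt1 and Tet1 were called lower, against 5.21% of all genes. The list median there was -0.70, and -0.89 without control MO ICM replicate 1. In Mcrs1 MO TE Dppa3 was called higher and Dnmt3b lower, against 1.77% and 3.31% of all genes. In Max MO TE none was called by limma, with 10 at an unadjusted p under 0.05.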

How the data were processed

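StringTie gave the authors 1 gene table per library, without pooling of replicates, from HISAT2 alignments of trimmed reads (cutadapt 1.16) on mm10. The processing notes also name Cufflinks and deepTools, and the annotation is not given in the sources used here. The deposited TPM is an abundance signal scaled within each library over the assembled loci, next to reference genes on the same scale. The deposited coverage (mean reads per base) and FPKM, the authors' other columns, served only to estimate depth, and intervals on counts could not be given.

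TPM was summed per gene name and tested as log2(TPM + 1) with limma 3.58.1 (R 4.3.3, lmFit and eBayes with a trend) in 3 fits: CC with 6 hpa, the 53 SCNT libraries, and the morpholino libraries. Genes with a mean under 1 TPM over a fit were left out, p-values were adjusted by Benjamini-Hochberg over all genes tested, and interaction terms compared responses. The procedure was tested on simulated data. Replicate numbers were taken to pair libraries where, with 3 or more pairs, every same-numbered pair correlated above 0.1 in its deviations from the group means, which held for 14 hpa with 6 hpa (r = 0.155 to 0.393) and for SCNT ICM with TE (r = 0.124 to 0.283). In groups of 2 libraries both pairs give 1 value by construction (0.121 for control MO ICM with TE), and these were not taken as paired. Differently numbered libraries were not compared, so the rule cannot tell pairing from the difference between replicates 1 to 3 and 4 to 6. No pair of libraries was a duplicate (highest r = 0.989). Transcript lengths were those of GENCODE principal transcripts.

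The members, the 2 other gene lists and the markers were chosen with earlier results of these data known. Values are given per library for members that were called or had a group mean of at least 10 TPM in CC or an SCNT group, and the other members are given by range and count. The alternatives were a pseudocount of 0.1, no filter, rescaling over the reference genes, quantile normalization, a replicate block, fits of fewer groups, each set of replicates alone, each library left out, and, chosen after seeing the data, removal of a trend on transcript length and counts of the other lists without control MO ICM replicate 1.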

Additional observations from a re-analysis of the deposited data

Results flagged for a closer look

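Within groups of 5 or 6 libraries 67 sets of values were searched for a library far from the rest, and 7 were found. The rate of about 1 in 20 expected by chance assumes independent, normally spread values. These sets share libraries, so an excess over chance was not tested. In Phlda2 14 hpa replicate 2 was at 337 TPM against 62.2 to 94.6 TPM in the others, E2C replicate 2 at 61.0 TPM against 116 to 142 TPM, and SCNT TE replicate 3 at 46.4 TPM against 2.80 to 8.52 TPM. In Tssc4 L2C replicate 1 was at 0.759 TPM against 7.82 to 19.9 TPM and 8C replicate 3 at 0.722 TPM against 8.47 to 20.1 TPM. 8C replicate 1 was low for both Snrpn (240.4 TPM against 364 to 467 TPM) and Gnas (1.14 TPM against 8.13 to 18.3 TPM).

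Peg3 with Mcrs1 MO lay above control MO in ICM and below it in TE, and the difference was not tested because Peg3 was under the filter. In ICM it was at 0.252 and 0.481 TPM with Mcrs1 MO, a mean of 0.366 TPM, and at 0.0683 and 0 TPM with control MO. In TE it was at 0.178 and 0.0678 TPM with Mcrs1 MO and at 2.61 and 2.07 TPM with control MO. The ICM values of both groups were under 1 TPM.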

How the results depend on the processing

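Of the 71 calls over 20 members 30 held in every alternative that kept all libraries or a fixed subset, 47 without each library in turn and 27 in both. Without filter on low TPM 1 member was called from 14 hpa to E2C, 3 from E2C to L2C, 1 from 8C to morula, 0 in Max MO TE, 1 in Mcrs1 MO TE and 0 between control MO ICM and TE. A pseudocount of 0.1 gave 3 at L2C, 2 between SCNT ICM and TE, 8 in Max MO ICM and 1 in Mcrs1 MO TE. Rescaling over the reference genes gave 1 in the morula. Quantile normalization gave 5 at 14 hpa, 3 at 4C, 1 in the morula and 0 between control MO ICM and TE. Removing the length trend gave 5 at 14 hpa, 1 in the morula and 1 in Mcrs1 MO TE. The replicate block gave 5 at 14 hpa. Where numbers were not taken to pair libraries it gave 1 in Mcrs1 MO TE and moved no other count by over 1.5 times.

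Replicates 1 to 3 alone gave 1 at 14 hpa, 3 at L2C and 2 between SCNT ICM and TE. Replicates 4 to 6 alone gave 5 at 14 hpa, 1 at E2C, 11 at 4C, 3 at 8C and 2 between SCNT ICM and TE, and Sgce from 4C to 8C turned to -0.17. Fits of only the groups compared gave 7 at 14 hpa, 1 at E2C, 5 in SCNT ICM against morula and 0 between SCNT ICM and TE. Fits of 1 lineage gave 3 in Max MO TE, 0 in Mcrs1 MO ICM and 6 in Mcrs1 MO TE. At a threshold of 5 TPM 9 members were present in CC, 10 at 6 hpa, 8 at 14 hpa, 9 at E2C, 10 at L2C, 7 at 4C, 7 at 8C, 11 in morulae, 7 in SCNT ICM and 9 in SCNT TE. The causes of these changes were not tested. The share of all genes called is not given beside the counts in this section, so they do not show changes particular to the members.

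Without 1 library the members called ranged from 14 to 17 at 6 hpa against CC, 2 to 3 at 14 hpa, 1 to 3 at E2C, 2 to 6 at L2C, 6 to 8 at 4C, 4 to 7 at 8C, 1 to 3 in the morula, 8 to 9 and 4 to 6 in SCNT ICM and TE against morula, and 1 to 2 between them. They ranged from 5 to 9 in Max MO ICM, 0 to 0 in Max MO TE, 2 to 4 in Mcrs1 MO ICM, 0 to 1 in Mcrs1 MO TE, 0 to 4 between control MO ICM and TE, and 0 to 1 for each response. A group left with 1 library was assumed to vary like the others. The difference of the Max transcript between the Max MO responses was -2.41 without Max MO ICM replicate 1 and 0.030 without replicate 2, against -1.19 with both. Groups of 2 libraries, unknown counts behind TPM and levels near 0 limit what could be called.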

Other observations

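Imprint factors were also followed along the SCNT course. Of the 19 tested, Zfp57 was called lower at E2C, L2C, 4C and 8C and higher in SCNT ICM and in SCNT TE than in morulae. Its levels were 101 to 602 TPM (median 314) at E2C, 26.8 to 69.1 TPM (median 53.2) at L2C, 2.65 to 17.8 TPM (median 5.12) at 4C, 0.386 to 5.69 TPM (median 2.18) at 8C, 1.28 to 4.14 TPM (median 2.38) in morulae, 18.2 to 107 TPM (median 70.7) in SCNT ICM and 7.7 to 20 TPM (median 15) in SCNT TE. Between the lineages it was called higher in ICM than in TE, both in SCNT blastocysts (log2 difference 1.78 ± 0.44, adjusted p = 0.0086) and in control MO blastocysts (log2 difference 3.69 ± 0.73, adjusted p = 0.031, and 3.43 without control MO ICM replicate 1). At 4C 8 of the 19 factors and 7 of 17 further imprinted genes tested were called lower and 0 higher, against 26.6% and 11.8% of all genes.

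Of the 37 further imprinted genes 18 were tested in the morpholino groups. In Max MO ICM 4 were called, Pon2 higher and Zdbf2, Cobl and Dhcr7 lower, against 23.7% of all genes, and with the length trend removed Pon2 and H13 were called, both higher. In Mcrs1 MO ICM Pon2 was called higher and Cobl lower, against 10.1% of all genes, and in Mcrs1 MO TE Phactr2 lower, against 5.08%. Without control MO ICM replicate 1, 17 were tested. The list median was then 0.05 in Max MO ICM and 0.29 in Mcrs1 MO ICM, against -0.94 and -0.36 with all libraries. In Max MO TE none was called by limma, with 1 at an unadjusted p under 0.05.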
